A study of Rattus norvegicus with 12 samples.

Results

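Alpha-2u-globulin is a small secreted carrier protein of male rats, encoded by a cluster of near-identical major urinary protein (Mup) genes. Its transcripts were followed in kidney cortex taken from 12 Sprague-Dawley (Crl:CD(SD)) rats, all male, with 1 one-colour Agilent array per rat. Every non-control probe whose RefSeq transcript carries a symbol beginning with Mup in the GRCr8 gene table was taken, however dim. This gave 11 probes for 5 genes out of 61657 probes: 2 for Mup4, 2 for Mup4l1, 2 for Mup4l3, 3 for Mup4l4 and 2 for Mup5. The rats were 5 weeks old at purchase and were given tert-butyl alcohol (TBA, a fuel-related solvent) at 1000 mg/kg/day, or water as the vehicle, for 4 weeks. They were bled 24 h after the last dose under a CO2-O2 mixture (4 parts to 1) or under isoflurane, both inhaled anesthetics. Each of the 4 groups held 3 rats: TBA CO2-O2, vehicle CO2-O2, TBA isoflurane and vehicle isoflurane. The comparisons asked what TBA did under each anesthetic, and whether the anesthetic itself moved the levels.

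Alpha-2u-globulins belong to the lipocalins, proteins with a barrel-shaped pocket that holds small lipophilic ligands. In the adult male rat the liver makes them in large amounts under androgen and pulsatile growth hormone and secretes them into the blood, from which the glomerulus filters them. Proximal tubule cells take up part of the filtered protein through the receptors megalin and cubilin and break it down in lysosomes. Chemicals whose ligands slow that breakdown cause protein droplets to build up in the tubules of male rats, a condition known as alpha-2u-globulin nephropathy, and TBA has been studied in that context. The arrays measured RNA in the cortex, not this protein.

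All 14 genes of the RefSeq table with a symbol of this kind lie on chromosome 5. Of these, 6 are listed as protein coding and 8 as pseudogenes, and no probe was matched to the coding gene Mup18. The stretches just upstream of the transcript starts that RefSeq uses are shown as a description of the 5 measured genes. Whether these stretches bear on the genes' levels was not tested. RefSeq gives them on the minus strand of chromosome 5 in GRCr8: chr5:79759497-79759646 for Mup4, chr5:79999696-79999845 for Mup5, chr5:80226535-80226684 for Mup4l1, chr5:80318373-80318522 for Mup4l3 and chr5:79707808-79707957 for Mup4l4. Each run below holds the 150 bases before the start, 5′ to 3′, with the letters TATAAA in capitals.
Mup4: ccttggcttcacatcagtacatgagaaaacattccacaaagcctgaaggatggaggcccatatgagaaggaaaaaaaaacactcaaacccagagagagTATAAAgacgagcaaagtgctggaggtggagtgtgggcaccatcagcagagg
Mup5: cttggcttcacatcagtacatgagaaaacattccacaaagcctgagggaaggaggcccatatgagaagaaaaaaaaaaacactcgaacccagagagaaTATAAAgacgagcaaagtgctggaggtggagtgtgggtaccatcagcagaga
Mup4l1: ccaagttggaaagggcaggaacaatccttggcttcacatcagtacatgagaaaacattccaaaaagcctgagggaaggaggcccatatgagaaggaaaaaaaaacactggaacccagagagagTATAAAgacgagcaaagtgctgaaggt
Mup4l3: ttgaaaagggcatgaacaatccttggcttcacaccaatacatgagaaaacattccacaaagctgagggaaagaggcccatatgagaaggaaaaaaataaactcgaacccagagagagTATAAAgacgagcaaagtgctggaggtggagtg
Mup4l4: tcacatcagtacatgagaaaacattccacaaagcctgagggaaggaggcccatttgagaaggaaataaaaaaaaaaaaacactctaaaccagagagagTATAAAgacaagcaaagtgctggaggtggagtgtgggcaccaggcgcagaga
The 250 bases before the start were 90.1% to 95.6% identical between the members, over 216 to 249 aligned bases in 10 pairs. TATAAA was found in all 5 of these 250-base windows, searching both strands, against 12.9% of 33469 promoters of the same length. The growth hormone related STAT motif TTCNNNGAA was found in 1 of the 5 (Mup4l1), against 7.67% of all promoters. The steroid receptor half-site TGTTCT was in 0 of the 5, against 17.5% of all promoters. No overlap between these motifs was found in the members. A match describes letters only.

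Signals are given as log2 of the background-subtracted intensity minus the log2 of that array's 75th percentile, so 0 is the level of the 75th-percentile probe and 1 unit is a doubling. Brightness differs with each probe's chemistry, so levels are compared between rats and not between probes. On each array 61.6% to 71.0% of probes were well above background, and the within-group correlation of arrays was 0.988 to 0.994. Lrp2 (megalin) lay between 6.14 and 6.60 in all 12 rats and Cubn (cubilin) between 5.25 and 5.85, as proximal tubule genes of the labelled tissue. TBA CO2-O2 rat 3 shared slide 1, scanned on day 1, with all 3 vehicle CO2-O2 rats. On day 2 followed slide 2, with the remaining pair of TBA CO2-O2 rats beside all 3 vehicle isoflurane rats, and slide 3, holding TBA isoflurane rats only. Under isoflurane, slide and treatment therefore cannot be told apart. The cortex is a bulk sample, in which fewer cells of a type and less RNA per cell cannot be told apart.

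Mup5, which encodes a major urinary protein secreted by the male liver, was read on all 12 arrays by probe A_44_P214936. The TBA CO2-O2 rats had log2 signals of -3.96, -4.46 and -1.21, against -0.67, -0.36 and -0.25 in the vehicle CO2-O2 rats. Under isoflurane the TBA rats had -0.49, -3.05 and -1.91, against 0.07, 1.30 and -1.22 in the vehicle rats. Every TBA rat lay below every vehicle rat under CO2-O2, with rats 1 and 2 far below and rat 3 close to the vehicle rats. Under isoflurane the groups overlapped, since TBA rat 1 stood above vehicle rat 3. Group means were -3.21 ± 1.75 in TBA CO2-O2, -0.43 ± 0.22 in vehicle CO2-O2, -1.81 ± 1.28 in TBA isoflurane and 0.05 ± 1.26 in vehicle isoflurane (SD, n = 3 each). The vehicle CO2-O2 rats were the tight group, spanning 1.33-fold. The span was 9.49-fold in the TBA CO2-O2 rats, 5.90-fold in the TBA isoflurane rats and 5.71-fold in the vehicle isoflurane rats. The second Mup5 probe, A_64_P117653, had -6.50, -5.96 and -2.33 in TBA CO2-O2 rats, against -2.16, -1.85 and -1.42 in vehicle CO2-O2 rats. It had -1.92, -5.10 and -3.55 in TBA isoflurane rats, against -1.17, 0.28 and -2.54 in vehicle isoflurane rats. This probe was well above background in 1 of 3 TBA CO2-O2 rats and 2 of 3 TBA isoflurane rats, so its lowest values carry background.

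Mup4l4, a Mup4-like family gene with 3 probes, was read on all 12 arrays by A_64_P123341. It had -3.30, -3.76 and -0.74 in the TBA CO2-O2 rats, against -0.10, 0.17 and 0.32 in the vehicle CO2-O2 rats. In the isoflurane groups it had -0.11, -2.51 and -1.53 in TBA rats, against 0.53, 1.81 and -0.62 in vehicle rats. The same rats were low and the same rat, vehicle isoflurane rat 2, was highest. The probe A_44_P135020 of the same gene had -4.15, -4.53 and -1.33 in TBA CO2-O2 rats, against -1.20, -0.73 and -0.59 in vehicle CO2-O2 rats. Under isoflurane A_44_P135020 had -1.05, -3.47 and -2.44 in TBA rats, against -0.24, 1.05 and -1.94 in vehicle rats. The third Mup4l4 probe, A_64_P142564, was well above background on 1 array alone, that of vehicle isoflurane rat 2, at -4.35.

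Mup4l1, of the same Mup4-like kind, was read on all 12 arrays by both of its probes. A_44_P414630 had -3.55, -4.02 and -1.66 in TBA CO2-O2 rats, against -1.10, -0.92 and -0.55 in vehicle CO2-O2 rats. Under isoflurane this probe had -1.56, -3.67 and -2.70 in TBA rats, against -0.63, 0.53 and -1.77 in vehicle rats. Its CO2-O2 groups did not overlap and its isoflurane groups did, as for Mup5. A_64_P072451 had -4.82, -5.13 and -1.86 in TBA CO2-O2 rats, against -1.66, -1.26 and -0.99 in vehicle CO2-O2 rats. For A_64_P072451 the isoflurane values were -1.24, -4.85 and -3.11 in TBA rats, against -0.72, 0.56 and -1.95 in vehicle rats. Here TBA isoflurane rat 1 again stood above vehicle isoflurane rat 3.

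Mup4l3, another Mup4-like gene, reached background in the lowest rats. Its probe A_44_P430892 had -5.55, -5.26 and -3.06 in TBA CO2-O2 rats, against -2.72, -2.27 and -1.73 in vehicle CO2-O2 rats. In the isoflurane groups A_44_P430892 had -2.37, -5.71 and -4.08 in TBA rats, against -1.73, -0.30 and -2.93 in vehicle rats. That probe was not well above background in TBA CO2-O2 rat 1 and TBA isoflurane rat 2. A_64_P070573 had -5.91, -6.85 and -3.16 in TBA CO2-O2 rats, against -2.97, -2.51 and -2.11 in vehicle CO2-O2 rats. The isoflurane values of A_64_P070573 were -2.40, -6.20 and -4.40 in TBA rats, against -1.97, -0.47 and -3.24 in vehicle rats. It was not well above background in TBA CO2-O2 rats 1 and 2 and TBA isoflurane rat 2.

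Mup4, a major urinary protein gene that gives its name to the 3 others, was read by A_64_P136602 on 9 of 12 arrays. It had -7.36, -6.78 and -3.83 in TBA CO2-O2 rats, against -3.25, -2.94 and -2.70 in vehicle CO2-O2 rats. Under isoflurane it had -3.35, -7.38 and -4.61 in TBA rats, against -2.19, -0.80 and -3.54 in vehicle rats. The 3 arrays on which it was not well above background were those of TBA CO2-O2 rats 1 and 2 and TBA isoflurane rat 2. The other Mup4 probe, A_44_P545566, was well above background in vehicle CO2-O2 rat 3 (-5.33) and vehicle isoflurane rat 2 (-3.94) alone, and its values elsewhere ran from -7.99 to -5.78. Neither it nor the dim Mup4l4 probe allowed a fold difference above the background bound. With genes this alike, a probe can catch transcripts of several members, so the split between single members is uncertain.

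**Figure D1:**
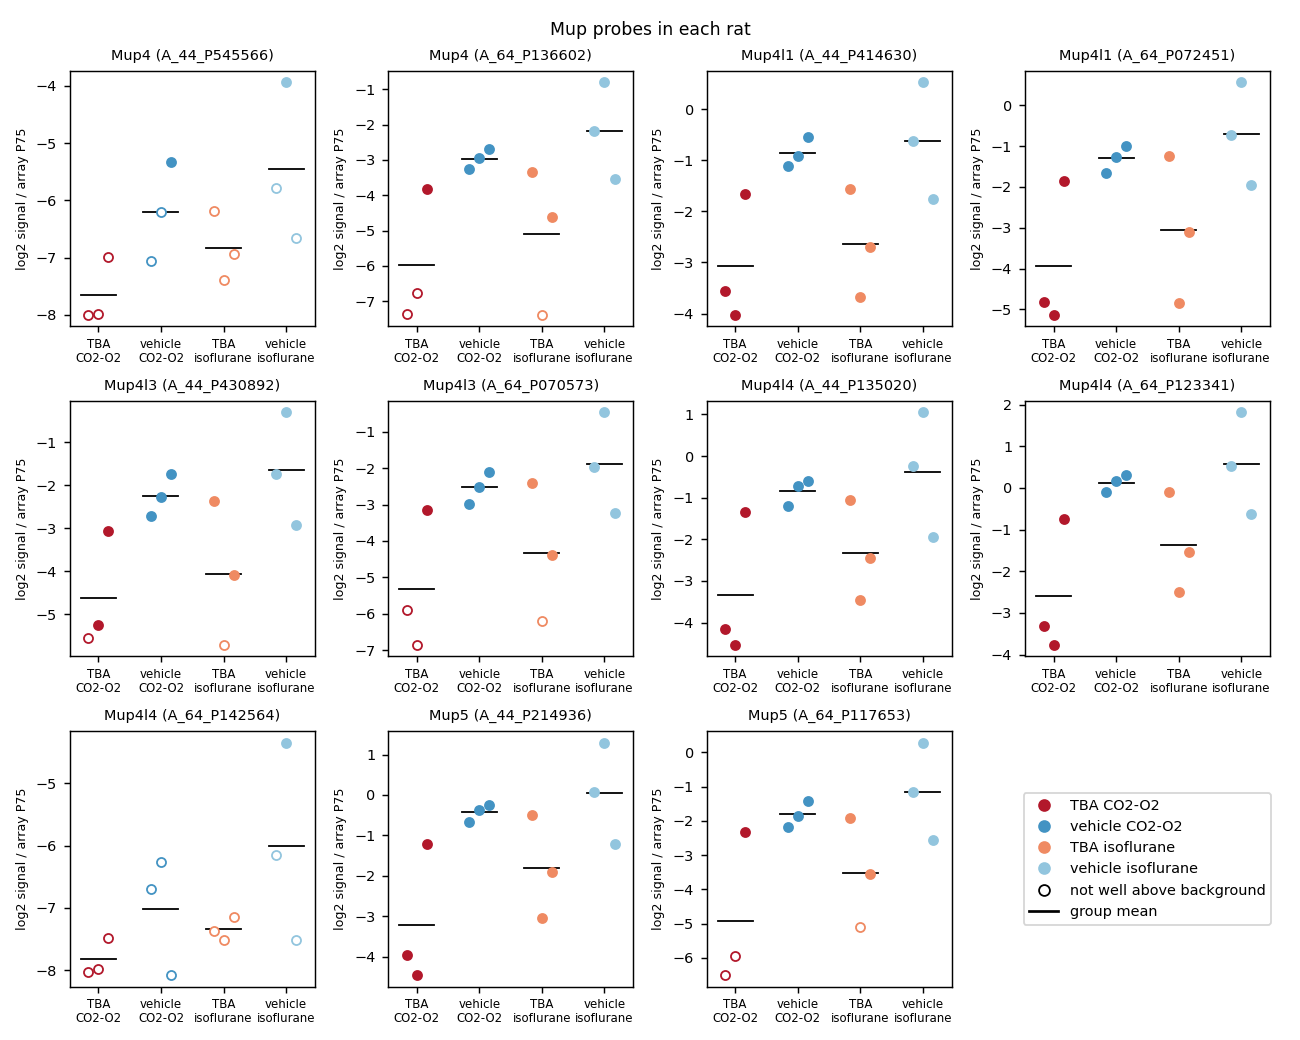
Log2 signal relative to the array's 75th percentile (y axis) of each of the 11 Mup probes in the 4 groups of 3 rats (x axis). Points are rats in the order 1 to 3, lines are group means, and open points are not well above background. Under CO2-O2 the TBA rats lie below the vehicle rats in all 5 panels without open points.

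Family signals averaged lower in TBA rats than in vehicle rats under both anesthetics, yet no probe passed the test in any comparison. Among the 5 probes read on all 12 arrays, the TBA minus vehicle difference was negative for 5 of 5 under CO2-O2, with a median of -2.63 (0.161 times the vehicle level), against 46.6% of 40216 kept probes below 0 and a median of 0.01 for all of them. Under isoflurane it was negative for 5 of 5 (49.2% of kept probes), with a median of -1.96 (0.257 times the vehicle level), and averaged over both anesthetics for 5 of 5 (48%), with a median of -2.32. The measured values of the 6 other probes also averaged lower in TBA rats, but they include background values, which carry no size or order. Each of the 5 probes read on all 12 arrays had every TBA CO2-O2 rat below every vehicle CO2-O2 rat. Over all kept probes 8.99% did. Under isoflurane 0 of these 5 separated the groups, against 11.1% of kept probes. The 6 other probes were at background in some or all TBA CO2-O2 rats, so their order there was not read.

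The test was limma's moderated test on all probes well above background in all 3 rats of at least 1 group, with Benjamini-Hochberg adjustment over all 40216. Of the 11 Mup probes 9 passed that filter, and 4 of these did so through the vehicle groups, being too dim on some TBA arrays. Mup5 (A_44_P214936) differed by -2.78 ± 0.92 under CO2-O2 (SE, adjusted p = 0.240, limma) and by -1.86 ± 0.92 under isoflurane (adjusted p = 0.322, limma). Mup4l4 (A_64_P123341) differed by -2.73 ± 0.87 under CO2-O2 (adjusted p = 0.228, limma) and by -1.96 ± 0.87 under isoflurane (adjusted p = 0.271, limma). The adjusted p of the 9 ran from 0.228 to 0.315 under CO2-O2, from 0.192 to 0.322 under isoflurane and from 0.0741 to 0.126 for the average. Thus 0 of 9 were called, where 0.139% of kept probes were under CO2-O2, 0.378% under isoflurane and 1.6% for the average. Of the 5 probes read on all 12 arrays, 5 were lower at an unadjusted p under 0.05 under CO2-O2, where 5.36% of kept probes were, 3 under isoflurane (8.41%) and 5 for the average (7.49%). The other 4 tested probes passed the filter through groups in which they were high, and their counts are not read.

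Over the 5 probes read on all 12 arrays the averaged difference ran from -2.50 (Mup4l1, A_64_P072451) to -2.12 (Mup4l1, A_44_P414630), and A_44_P414630 had the lowest adjusted p of all, 0.0741 (limma). For Mup4 (A_64_P136602) the fit gave an adjusted p of 0.0957 (limma) for the average, with 3 TBA arrays at background. Without TBA CO2-O2 rat 3, 7 of 9 probes passed for the averaged comparison, with a lowest adjusted p of 0.0325 (limma) and a median of -2.82. With any other rat left out, 0 passed. As only 5 probes were read on all 12 arrays, some of the 7 had TBA arrays at background. The calls over all kept probes also moved with the rat left out, so the 7 are not read as a family result.

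TBA CO2-O2 rat 3 was also the TBA rat that shared slide 1 with the vehicle CO2-O2 rats. Within slide 1 its Mup5 signal of -1.21 was set against -0.67, -0.36 and -0.25, a difference of -0.78 ± 0.20 (SE, adjusted p = 0.347 within slide 1, limma, the lone TBA rat being assumed to vary like the vehicle rats). The median over the 9 tested probes within slide 1 was likewise -0.78, against -2.73 over all CO2-O2 rats. The latter includes background values, and it was -2.63 for the 5 probes read on all 12 arrays. TBA CO2-O2 rats 1 and 2 shared slide 2 with the vehicle isoflurane rats, and there Mup5 had -3.96 and -4.46 in the TBA rats, against 0.07, 1.30 and -1.22 in the vehicle rats, which differed in anesthetic as well. Both slides thus held TBA rats below vehicle rats, by unequal amounts, and whether the slide moved the signal was not tested apart from the rats on it. Under isoflurane the median over the tested probes was -2.36 with all rats and -1.51 without TBA isoflurane rat 2. Some of the tested probes had TBA arrays at background. For the 5 probes read on all 12 arrays the isoflurane median was -1.96 with all rats.

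**Figure D2:**
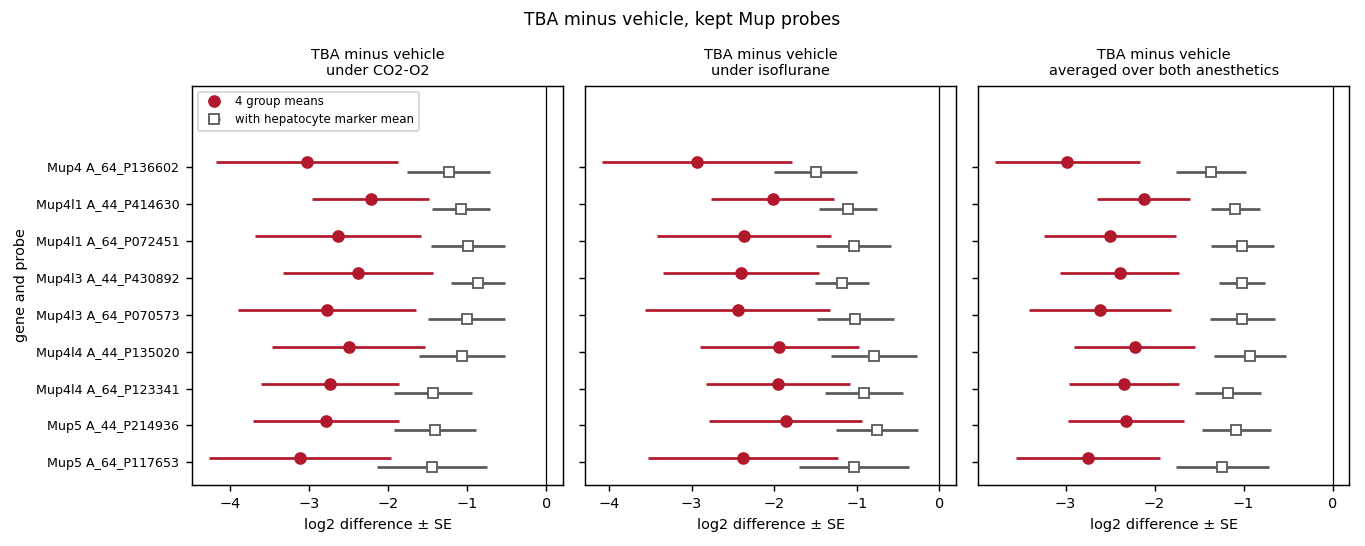
TBA minus vehicle difference in log2 signal (x axis, point and SE from limma) of the 9 tested Mup probes (y axis) under CO2-O2, under isoflurane and averaged. Filled points come from the 4 group means and open squares from the fit that adds the mean of 17 hepatocyte markers; all lie below 0, and the squares lie nearer to 0.

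The anesthetic made no difference that passed the test. Vehicle CO2-O2 rats were all on slide 1 and vehicle isoflurane rats on slide 2, while slide 3 held only TBA isoflurane rats. Within vehicle rats and within TBA rats, slide and anesthetic therefore cannot be told apart. Isoflurane minus CO2-O2 was positive for 5 of 5 probes read on all 12 arrays in TBA rats, with a median of 1.02, and for 5 of 5 in vehicle rats, with a median of 0.46, where 51.5% and 53.5% of kept probes were positive. Called probes were 0 of 9 in both, where 0.00497% of kept probes were called in TBA rats and 0.102% in vehicle rats. For Mup5 (A_44_P214936) the difference was 1.40 ± 0.92 in TBA rats (adjusted p = 0.624, limma) and 0.47 ± 0.92 in vehicle rats (adjusted p = 0.815, limma). At an unadjusted p under 0.05 the count was 0 of 9 in both, against 10.8% and 19% of kept probes. The vehicle median of the 9 tested probes was 0.59 with all rats, -0.09 without vehicle isoflurane rat 2 and 3.47 with slide or scan day as a fixed term. In TBA rats, where some of the 9 probes were at background, the median was 0.97 with all rats and 0.01 without TBA isoflurane rat 1. The TBA difference under isoflurane minus that under CO2-O2 was 0.92 ± 1.31 for Mup5 (adjusted p = 0.800, limma). Its direction was not stable, as the median of the tested probes was 0.33, but -1.59 with scan day as a fixed term, and between -0.34 and 1.41 with each rat left out. Called for it were 0 of 9 Mup probes and 0% of the 40216 kept probes, and 0 of 9 had an unadjusted p under 0.05, against 12.7% of kept probes.

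The 5 probes read on all 12 arrays ordered the rats much alike. Their 10 pairs correlated at 0.975 to 0.999, and at 0.974 to 0.999 after each group's mean was removed. Over all 36 pairs of tested Mup probes the ranges were 0.966 to 0.999 and 0.941 to 0.999. The added pairs include background values, which carry no size or order. These correlations describe 12 arrays on which the probes share the RNA and may share transcripts. Of the dim probes, A_44_P545566 of Mup4 correlated with Mup5 (A_44_P214936) at 0.898 and A_64_P142564 of Mup4l4 at 0.709, mostly over background values. The mean of the 9 probes held between 90.9% and 99.4% of the variance of each, a share raised because each probe is part of that mean. This mean, used below as the family mean, includes background values of some TBA arrays. The median deviation over the 9 probes, which takes in background values in some TBA rats, gave an order of rats. Vehicle isoflurane rat 2 was highest at 2.82, followed by vehicle isoflurane rat 1 at 1.48. The vehicle CO2-O2 rats 3, 2 and 1 came next at 1.26, 0.99 and 0.68, with TBA isoflurane rat 1 among them at 0.77. TBA CO2-O2 rat 3 at 0.23 and vehicle isoflurane rat 3 at 0.22 stood side by side. The lowest 4 were all TBA rats: TBA isoflurane rat 3 at -0.72, TBA isoflurane rat 2 at -2.25, TBA CO2-O2 rat 1 at -2.49 and TBA CO2-O2 rat 2 at -2.88. From the lowest to the highest rat the 5 probes read on all 12 arrays spanned 23.4-fold (Mup4l1, A_44_P414630) to 53.9-fold (Mup5, A_44_P214936).

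**Figure D3:**
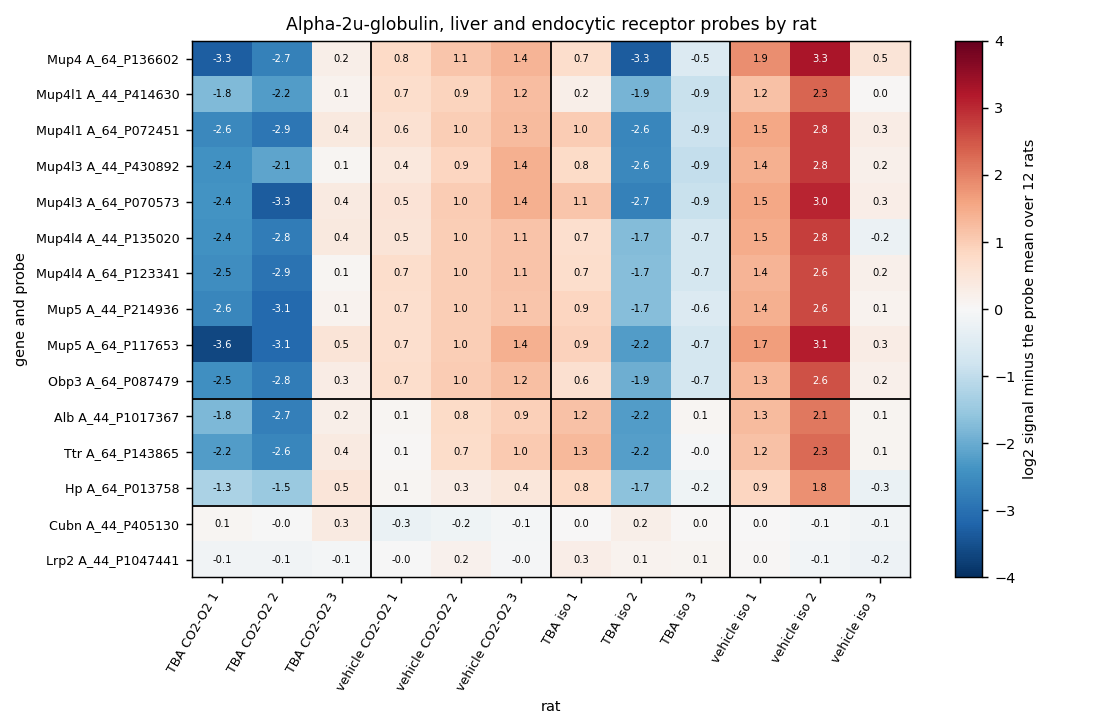
Log2 signal minus the probe's mean over 12 rats (colour and printed value) for the 9 tested Mup probes, Obp3, 3 liver genes and 2 tubular receptors (rows) in each rat (columns). The liver genes drawn are the 3 of 17 hepatocyte markers that correlated most with the family; others, such as Tf at -0.02, did not follow. Rows of the Mup probes, Obp3, Alb, Ttr and Hp show the same low (blue) and high (red) rats, while Cubn and Lrp2 stay near 0.

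Few probes varied as much between rats of a group. The pooled within-group SD of the 9 tested Mup probes ran from 1.01 to 1.57 log2 units, against a median of 0.150 and a 95th percentile of 0.540 over the 40216 kept probes. Their percentiles among all kept probes ran from 98.9 to 99.7. The 5 probes read on all 12 arrays had SDs from 1.01 to 1.43, at percentiles from 98.9 to 99.6. The higher SDs came from probes with TBA arrays at background. For Mup5 (A_44_P214936) the SD was 1.75 in TBA CO2-O2 rats, 0.22 in vehicle CO2-O2 rats, 1.28 in TBA isoflurane rats and 1.26 in vehicle isoflurane rats.

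**Figure D4:**
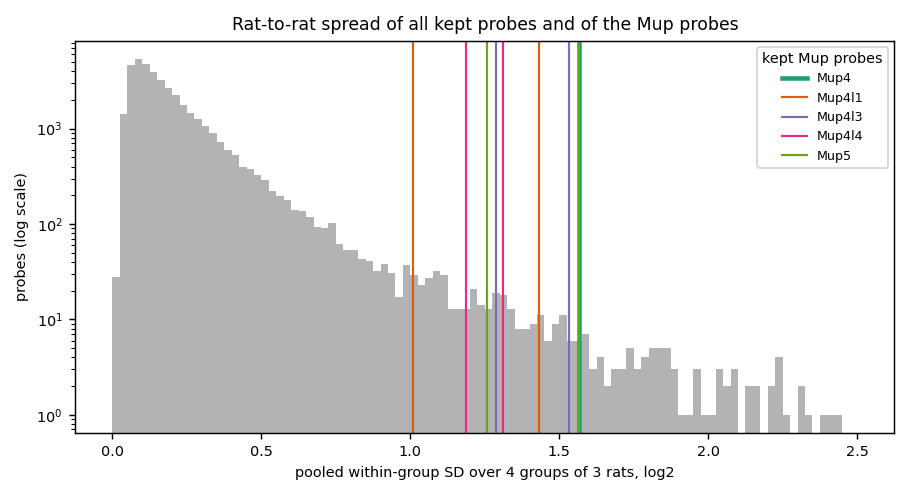
Number of kept probes (y axis, log scale) by pooled within-group SD in log2 units (x axis), with vertical lines for the 9 tested Mup probes coloured by gene. The lines lie between 1.01 and 1.57, to the right of nearly all of the 40216 probes. Those of the 5 probes read on all 12 arrays lie between 1.01 and 1.43, and the other probes had TBA arrays at background.

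Obp3, a lipocalin gene next to the Mup genes on chromosome 5 whose symbol does not begin with Mup, followed them closely. Its 250-base upstream window was 93.8% to 97.4% identical to those of the members. Its bright probe A_64_P087479 had -2.61, -2.96 and 0.13 in TBA CO2-O2 rats, against 0.54, 0.86 and 1.04 in vehicle CO2-O2 rats. The probe had 0.49, -2.10 and -0.86 in TBA isoflurane rats, against 1.16, 2.40 and 0.04 in vehicle isoflurane rats. Its groups were apart under CO2-O2 and overlapped under isoflurane, and its averaged difference was -2.32 ± 0.64 (adjusted p = 0.0965, limma). Its dim probe A_44_P240707 was not well above background in any TBA rat. It was read in 2 of 3 vehicle rats under each anesthetic, so no fold bound is given. Rup2, named for a rat urinary protein, had an averaged difference of -1.80 ± 0.75 with its bright probe A_64_P001953 (adjusted p = 0.236, limma). Of 9 other lipocalins measured, among them Lcn2, the neutrophil gelatinase-associated lipocalin, 0 were called in any TBA comparison (limma, 1 at an unadjusted p under 0.05 under CO2-O2 and 2 under isoflurane, where 13.9% and 18.3% of kept probes were), and their median TBA minus vehicle difference was -0.04 under CO2-O2 and 0.28 under isoflurane.

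The symbols most like Mup5 over the 12 rats were Obp3, Rup2, Cyp2c13, Ttr and Alb. Against the bright probe of each member, Obp3 correlated at 0.980 to 0.998. Cyp2c13, a male-specific liver cytochrome P450 of the rat, correlated at 0.970 to 0.977, although it was not well above background in any of the 6 TBA rats. Ttr, the thyroid hormone carrier transthyretin, correlated at 0.946 to 0.974. Alb, serum albumin, correlated at 0.968 with Mup5. For Mup5, 7 of 11684 symbols outside the family and 20 of 19994 probes without a symbol had a correlation above 0.95. The closest unnamed probe, for accession XR_006055, correlated with Mup5 at 0.999. The most opposed was Pabpn1, a poly(A)-binding protein of the nucleus, at -0.865 to -0.925.

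Alb, the main protein of blood plasma and a product of hepatocytes, was well above background on all 12 arrays. Its signals were -1.41, -2.34 and 0.63 in TBA CO2-O2 rats, against 0.49, 1.18 and 1.34 in vehicle CO2-O2 rats. Under isoflurane they were 1.57, -1.84 and 0.46 in TBA rats, against 1.67, 2.52 and 0.50 in vehicle rats. The rats low for Mup5, TBA CO2-O2 rats 1 and 2 and TBA isoflurane rat 2, were the 3 lowest for Alb, and vehicle isoflurane rat 2 was again highest. Alb differed by -2.04 ± 0.94 under CO2-O2 (adjusted p = 0.369, limma) and by -1.50 ± 0.94 under isoflurane (adjusted p = 0.436, limma). Ttr had -2.39, -2.78 and 0.20 in TBA CO2-O2 rats, against -0.11, 0.58 and 0.88 in vehicle CO2-O2 rats. In the isoflurane groups Ttr had 1.12, -2.38 and -0.21 in TBA rats, against 1.01, 2.11 and -0.04 in vehicle rats. Both CO2-O2 groups of Ttr overlapped, as TBA rat 3 stood above vehicle rat 1.

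Of 18 hepatocyte markers listed, 17 were measured, and 5 of them correlated above 0.9 with the family mean: Ttr at 0.978, Alb at 0.971, Hp (haptoglobin) at 0.960, Serpina1 (alpha-1-antitrypsin) at 0.941 and Itih3 at 0.926. The lowest 3, Tf (transferrin) at -0.02, Serpinc1 (antithrombin) at -0.27 and Fga (a fibrinogen chain) at -0.36, did not follow. All but Alb, Ttr and Hp were named here after their values were seen. The mean of the 17 markers correlated with the family mean at 0.928 over 12 arrays, at 0.919 after group means were removed and at 0.904 without vehicle isoflurane rat 2. The TBA minus vehicle median of the list was -0.81 under CO2-O2 (12 of 17 lower) and -0.64 under isoflurane (14 of 17 lower), and 0 of 17 were called in any comparison (limma, with 1 of 17 at an unadjusted p under 0.05 under each anesthetic and 5 for the average). Of all kept probes 46.6% and 49.2% were lower under the 2 anesthetics, and 13.9%, 18.3% and 18.7% had an unadjusted p under 0.05 in the 3 comparisons. The markers' summed linear level, as a multiple of the 75th percentile, ran from 114 to 133 in TBA CO2-O2 rats, from 104 to 130 in vehicle CO2-O2 rats, from 108 to 136 in TBA isoflurane rats and from 106.5 to 124 in vehicle isoflurane rats. Most of each sum came from Serpinc1, which did not follow the family, and the groups overlapped. None of the 17 was at background throughout: 15 were read on all 12 arrays, Fgg on 10 and Apoa2 on 9. Whether RNA of liver origin has a part in the family's differences was not tested.

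Mup5 and Alb were also set against each other within each array. The Mup5 minus Alb difference was -2.55, -2.12 and -1.84 in TBA CO2-O2 rats, against -1.15, -1.54 and -1.59 in vehicle CO2-O2 rats. Under isoflurane it was -2.05, -1.21 and -2.37 in TBA rats, against -1.60, -1.22 and -1.72 in vehicle rats. The CO2-O2 groups stayed apart, with means of -2.17 ± 0.36 in TBA rats and -1.43 ± 0.24 in vehicle rats (SD, n = 3 each). The isoflurane groups overlapped, with means of -1.88 ± 0.60 in TBA rats and -1.51 ± 0.26 in vehicle rats (SD, n = 3 each). Alb was among the genes most correlated with Mup5. Against the mean of all 17 hepatocyte markers, each centred over the 12 rats, Mup5 stood at -1.99, -2.31 and 0.17 in TBA CO2-O2 rats, against 0.81, 0.59 and 0.63 in vehicle CO2-O2 rats. Under isoflurane Mup5 minus that mean was 0.24, -0.59 and -0.51 in TBA rats, against 1.00, 1.65 and 0.32 in vehicle rats. On this measure the TBA rats lay below the vehicle rats under both anesthetics, with TBA isoflurane rat 1 close to vehicle isoflurane rat 3. The marker mean spanned 2.11 log2 units over the 12 rats, against 5.63 for the family mean. Subtracting it from the family mean left an SD of 1.21 over the 12 rats, against 1.77 before. The marker mean, which includes markers that did not follow the family, had a slope of 0.33 on the family mean. Subtracting it was therefore bound to leave much of the family's spread, and nothing is read from what stayed.

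**Figure D5:**
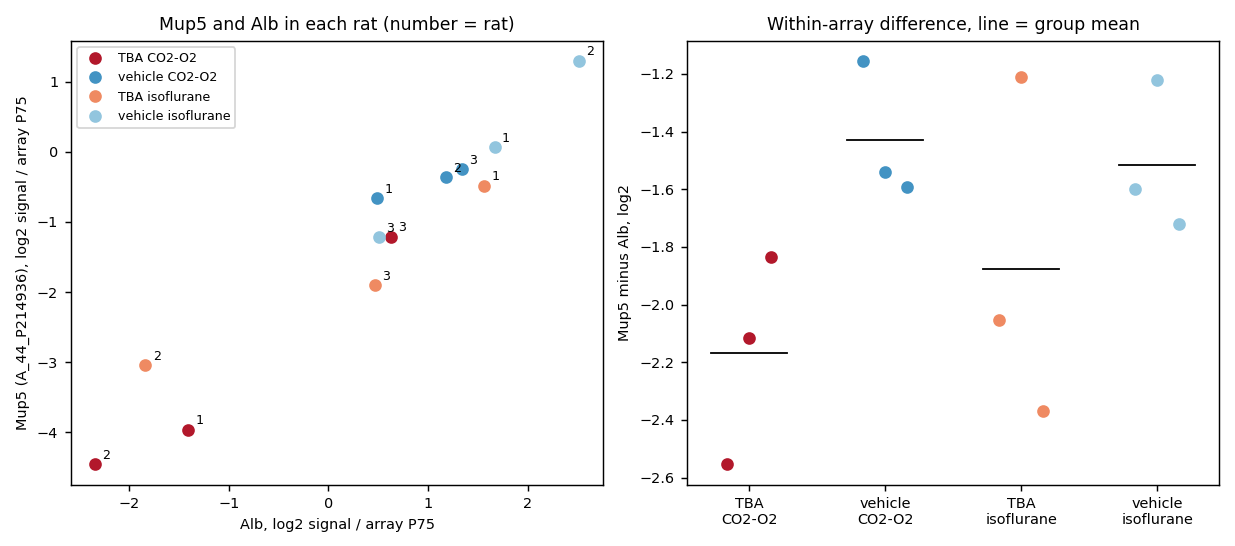
Left, Mup5 (y axis) against Alb (x axis) in log2 signal relative to the array's 75th percentile, 1 point per rat, numbered within its group. Right, Mup5 minus Alb in log2 units (y axis) by group (x axis) with group means as lines; the 3 TBA CO2-O2 rats lie from -2.55 to -1.84, below the 3 vehicle CO2-O2 rats.

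A fit added the mean of the 17 hepatocyte markers of each array, chosen after these values were seen. It left the TBA difference negative in each comparison for all 5 probes read on all 12 arrays. The median over the 9 tested probes became -1.08 under CO2-O2, -1.03 under isoflurane and -1.08 for the average. Without the marker mean it was -2.73, -2.36 and -2.39. Some of the 9 had TBA arrays at background. The 5 probes read on all 12 arrays had medians of -2.63, -1.96 and -2.32 without the marker mean. For Mup5 (A_44_P214936) the difference became -1.41 ± 0.52 under CO2-O2 (adjusted p = 0.424, limma) and -0.75 ± 0.50 under isoflurane (adjusted p = 0.506, limma). Called probes stayed at 0 of 9, with lowest adjusted p of 0.400, 0.159 and 0.185 (limma) in the 3 comparisons. Over all kept probes this fit gave 1, 0 and 9 calls.

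Sex-dependent and growth hormone dependent genes, the class to which the family's liver expression belongs, did not shift in 1 direction under both anesthetics. Of 20 measured, 15 were lower in TBA than in vehicle rats under CO2-O2 (median -0.49) and 8 were lower under isoflurane (median 0.12), and 1 was called under CO2-O2 and 0 under isoflurane (limma, 4 of 20 at an unadjusted p under 0.05 in each). Of all kept probes 46.6% and 49.2% were lower in these comparisons, 0.139% and 0.378% were called, and 13.9% and 18.3% had an unadjusted p under 0.05 (18.7% for the average). The called gene was Igf1, insulin-like growth factor 1, with 1.94, 1.92 and 2.11 in TBA CO2-O2 rats against 3.04, 2.87 and 2.78 in vehicle CO2-O2 rats. Its difference of -0.91 ± 0.13 (adjusted p = 0.0358, limma) ran from -0.97 to -0.84 with each of the 12 rats left out, and the call was then lost in 8 of the 12 cases, with adjusted p from 0.0101 to 0.166. It was kept without TBA CO2-O2 rat 3, vehicle isoflurane rat 1 or 2, or TBA isoflurane rat 1. For the average Igf1 was also called, at -0.52 ± 0.09 (adjusted p = 0.0315, limma). That call was lost in 9 of the 12 cases. Within slide 1, with 1 TBA rat and the spread of the vehicle rats alone, Igf1 differed by -0.79 (adjusted p = 0.248, limma). Cyp2c11, the main male-specific P450 of rat liver, did not share the family's order of rats. It had -0.73, -0.22 and 1.66 in TBA CO2-O2 rats, against -0.42, 2.25 and 1.84 in vehicle CO2-O2 rats. In the isoflurane groups Cyp2c11 had 1.90, -0.87 and 1.44 in TBA rats, against -3.11, 0.92 and 3.48 in vehicle rats, so that the lowest and the highest rat were both vehicle isoflurane rats. Cyp2c13 was not well above background in any TBA rat. It was at least 2.17-fold lower in TBA rats under isoflurane, with 3 of 3 vehicle rats read (adjusted p = 0.177, limma). Under CO2-O2 it was read in 2 of 3 vehicle rats, so no fold bound is given there (adjusted p = 0.357, limma).

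Among 13 measured receptors and transcription factors of sex and growth hormone signalling, 0 were called under CO2-O2 (limma), where 0.139% of kept probes were. At an unadjusted p under 0.05 the CO2-O2 count was 1, where 13.9% of kept probes were. Called lower under isoflurane was 1, where 0.378% of kept probes were called. This was Stat5b, a mediator of pulsatile growth hormone, with -2.93, -3.09 and -2.95 in TBA isoflurane rats against -2.48, -2.39 and -2.17 in vehicle isoflurane rats. Its difference of -0.64 ± 0.10 (adjusted p = 0.0387, limma) kept its call in 2 of 12 cases with a rat left out, those of TBA CO2-O2 rat 3 and vehicle isoflurane rat 1, and its adjusted p ran from 0.0420 to 0.117. Under CO2-O2 Stat5b differed by 0.20 ± 0.10 (adjusted p = 0.397, limma). Ghr, the growth hormone receptor, differed by 0.12 ± 0.05 on average (adjusted p = 0.204, limma).

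For genes that handle the filtered protein the counts of called members lay near the share over all kept probes (0.139% under CO2-O2, 0.378% under isoflurane and 1.6% for the average), and lists this short would hold few calls at such shares. At an unadjusted p under 0.05 (limma) the shares of kept probes were 13.9%, 18.3% and 18.7%. Of 9 endocytic uptake genes, 0 were called in any TBA comparison (limma, 1 at an unadjusted p under 0.05 in each), with medians of 0.07 under CO2-O2 and 0.04 under isoflurane. Lrp2 differed by 0.05 ± 0.06 on average (adjusted p = 0.672, limma) and Cubn by 0.24 ± 0.07 (adjusted p = 0.124, limma). Of 15 lysosomal proteases 0 were called (1 at an unadjusted p under 0.05 in each), with medians of 0.10 and 0.07, and Ctsd, the aspartic protease cathepsin D, differed by 0.07 ± 0.07 under CO2-O2. Of 15 tubular injury and regeneration genes 0 were called (1 at an unadjusted p under 0.05 under CO2-O2 and 3 under isoflurane), with medians of 0.11 and 0.12. Havcr1, the kidney injury molecule, differed by 0.06 ± 0.37 on average (adjusted p = 0.948, limma) and Pcna, a replication clamp of dividing cells, by -0.01 ± 0.04 (adjusted p = 0.888, limma).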

How the data were processed

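RNA (0.2 ug) from the cortex received a Cy3 label before one-colour hybridisation, per the labels' protocols. The deposited scanner files come from Feature Extraction (10.7.1.1 in the headers) and name rn4 as the array's build. Their intensity had its background subtracted by that software, per the file headers, with no scaling across arrays. The submitters' deposited series table holds a linear ratio of that intensity to the array's 75th percentile, a scale found from its values. Each of its 12 columns matched a different rat of its own group among the scanner files (r of at least 0.9999), so replicate numbers follow the scanner files. The labels call the rats biological replicates.

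Log2 intensity minus the log2 75th percentile was fitted for 40216 probes well above background in all 3 rats of at least 1 group (limma 3.58.1, R 4.3.3, 1 mean per group, all 12 arrays, Benjamini-Hochberg, threshold 0.05). Control spots and outlier flags were left out. The fit was tested on simulated data. Symbols came from RefSeq (GRCr8, names only): 27460 probes had 1 symbol, 0 several and 34197 none. Upstream sequences are RefSeq's. The genes to name were every Mup probe, relatives, the called and the 2 brightest members of each gene list, a fixed set of receptors and markers, and the 5 symbols most and least correlated with each member's brightest probe. A selection of these is shown, besides hepatocyte markers and Ctsd named after their values were seen. The members and lists were chosen with earlier results of these data known. Same-numbered rats of different groups did not deviate together (r from -0.137 to 0.126, 3 of 18 pairs above 0.1), so the numbers pair no rats. The number of arrays limits the precision.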

Additional observations from a re-analysis of the deposited data

How the results depend on the processing

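Called Mup probes stayed at 0 under every alternative run for each comparison except the averaged TBA comparison, where array weights gave 2, normexp background correction gave 1 and leaving out each rat gave 0 to 7 (7 without TBA CO2-O2 rat 3). The median difference of the tested probes under CO2-O2 was -2.73, and -0.78 with slide or scan day as a fixed term or within slide 1, which leave TBA CO2-O2 rat 3 as the sole TBA rat compared. It was -1.08 with the hepatocyte marker mean, against -1.03 under isoflurane and -1.08 for the average. With each rat left out the medians ran from -3.67 to -2.07 under CO2-O2, -3.18 to -1.51 under isoflurane, -2.82 to -2.05 for the average, -0.34 to 1.41 for the difference between the anesthetics, 0.01 to 2.02 for isoflurane minus CO2-O2 in TBA rats and -0.09 to 1.23 in vehicle rats. The difference between the anesthetics, 0.33, became -1.59 once scan day was fixed, and the averaged median became -1.45 with it and -1.53 under normexp. Isoflurane minus CO2-O2 in vehicle rats became 3.47 with slide or scan day fixed, against 0.59, because only the TBA CO2-O2 rats then link the slides. The replicate number as a block changed no call of a Mup probe, with adjusted p of 0.304, 0.386 and 0.162 for Mup5 (limma) in the 3 TBA comparisons. Quantile normalization and the submitters' table gave Mup5 -2.81 and -2.78 under CO2-O2. The counts over all kept probes, used as background, moved more: 56 calls under CO2-O2 became 1 to 205, 152 under isoflurane 0 to 1737 and 644 for the average 9 to 1374 across the alternatives other than leaving out a rat, and 0 to 186, 0 to 143 and 96 to 1028 with each rat left out. Isoflurane minus CO2-O2 gave 41 calls in vehicle rats (0 to 1416, and 0 to 97 without each rat) and 2 in TBA rats (0 to 9 in both). The cause of these shifts was not tested. Low signal limits 2 of the 11 Mup probes, which had no test, and 4 more had TBA arrays at background. Those 4 are among the tested probes over which the medians of this section were taken.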
